A study of Mus musculus with 33 samples.

Results

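Hepatocellular carcinomas (HCC) of mice with the genotype Sav1 -/- were ranked by their Igf2 level, and the 4 tumours with the most Igf2 were compared with the 4 that had the least. There were 11 such tumours among the 33 liver samples of the series. The ranking used the log2 values deposited by the authors and the 1 probe for Igf2 on the array. The 3 tumours between the classes entered the fit as a class of their own. RNA of every sample was hybridised to an Illumina MouseWG-6 v2.0 bead array, which reads each transcript as the brightness of 1 or more probes. The other samples were 7 surrounding livers with the genotype Sav1 -/-, 4 tumours and 3 surrounding livers with the genotype Mst1/2 -/-, and normal livers of the genotypes Sav1 flox (n = 3), Mst1/2 flox (n = 3) and Wt (n = 2). The labels give each tumour its genotype and tissue alone, with no age, sex, treatment or Cre driver, and do not say that the tumours came from separate animals. The p-values below therefore measure the spread between these samples, part of which may be technical.

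Igf2 encodes insulin-like growth factor 2, a secreted hormone that drives growth of the fetus through the receptors encoded by Igf1r and Insr. In mice the gene is imprinted, with the paternal copy active, and its strong transcription in fetal liver is shut down after birth. Its return is a known feature of many liver tumours. Sav1 is the scaffold protein that brings the kinases Mst1 and Mst2 to their substrates in the Hippo pathway, and loss of that pathway releases the coactivators YAP and TAZ, which act on DNA through TEAD factors.

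The promoters of 3 genes on which the comparison turns are shown for reference: Wtip, which was the 1 gene past the test, Ankrd1, the YAP/TAZ target with the smallest p in its list, and Igf2. Each sequence is the 250 bases before a RefSeq start in GRCm38.p6, read 5′ to 3′ on the gene's own minus strand, at chr7:34133269-34133518 for Wtip, chr19:36119845-36120094 for Ankrd1 and chr7:142657497-142657746 for the most downstream of the 4 RefSeq starts of Igf2. Capitals mark the TEAD motif CATTCC or its reverse complement GGAATG, searched on both strands.
Wtip: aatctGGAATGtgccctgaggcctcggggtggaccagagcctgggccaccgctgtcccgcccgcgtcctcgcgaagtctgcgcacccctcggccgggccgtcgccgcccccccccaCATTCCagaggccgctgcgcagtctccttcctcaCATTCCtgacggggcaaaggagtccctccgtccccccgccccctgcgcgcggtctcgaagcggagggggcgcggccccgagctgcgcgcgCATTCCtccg
Ankrd1: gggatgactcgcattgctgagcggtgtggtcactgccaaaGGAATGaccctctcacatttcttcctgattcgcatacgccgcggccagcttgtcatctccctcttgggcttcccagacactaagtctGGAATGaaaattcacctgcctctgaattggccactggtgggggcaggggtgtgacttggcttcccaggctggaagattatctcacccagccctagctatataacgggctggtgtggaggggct
Igf2: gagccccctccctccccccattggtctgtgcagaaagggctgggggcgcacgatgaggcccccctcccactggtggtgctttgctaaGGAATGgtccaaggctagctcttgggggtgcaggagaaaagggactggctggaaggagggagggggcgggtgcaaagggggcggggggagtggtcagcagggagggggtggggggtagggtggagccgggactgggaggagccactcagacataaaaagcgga
The motif occurred 4 times before Wtip, 2 times before Ankrd1 and 1 time before this start of Igf2. Of 32851 RefSeq promoters of the same length, 12.6% held it at least once, 0.992% at least 2 times and 4 of them (0.0122%) at least 4 times. A match describes these letters and does not show binding. Which of the starts the Igf2 probe reads was not tested.

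Igf2 itself defined the classes, so its levels are a description and carry no test. On the log2 scale of normalized intensity it stood at 15.63 in tumour 7, 15.34 in tumour 9, 11.20 in tumour 4 and 11.08 in tumour 11, the Igf2-high class. Tumours 5, 8 and 2 between the classes had 8.52, 8.52 and 8.34. The Igf2-low class consisted of tumours 1, 6, 10 and 3, with 7.65, 7.53, 7.09 and 7.06. Igf2 levels in the high class thus lay in a pair of tumours near 15 and a pair near 11, and the lower pair was closer to the middle tumours than to tumours 7 and 9. In the authors' log2 values used for the ranking, the last tumour inside the high class had 11.08 and the first outside had 8.56, whereas the first tumour inside the low class had 7.74 and its neighbour outside had 8.39.

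The class means of Igf2 were 13.31 ± 2.51 (SD, n = 4), 8.46 ± 0.10 (n = 3) and 7.33 ± 0.30 (n = 4). The Igf2-low class lay within the range of normal livers, where Igf2 averaged 7.49 ± 0.17 (n = 3) with Sav1 flox, 7.82 ± 0.28 (n = 3) with Mst1/2 flox and 6.91 ± 0.11 (n = 2) with Wt. All 4 Mst1/2 tumours were at the level of tumours 7 and 9, from 15.04 to 15.62 with a mean of 15.38 ± 0.26 (n = 4). Surrounding livers of Sav1 -/- mice spread from 7.92 to 13.91 with a median of 8.70 (n = 7), and those of Mst1/2 -/- mice from 7.41 to 9.08 (n = 3). The Igf2 signal was above the estimated background on all 33 arrays.

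**Figure D1:**
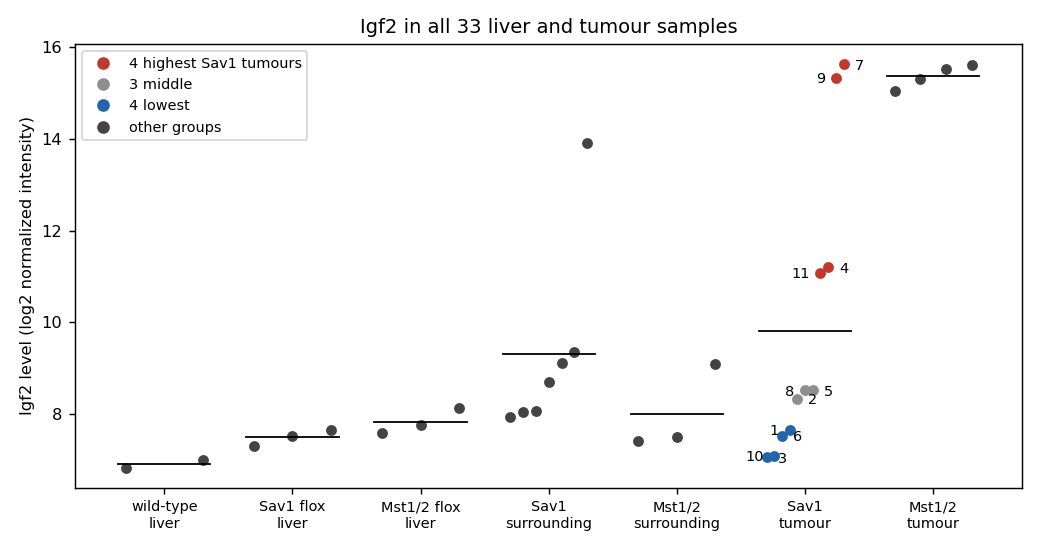
Each point is the Igf2 level of one sample (vertical axis, log2 normalized intensity), grouped by genotype and tissue, and each line is the mean of its group. Red marks the 4 highest, grey the 3 middle and blue the 4 lowest Sav1 tumours, and numbers beside the Sav1 tumours are the tumour numbers of the labels. Tumours 7 and 9 lie with the 4 Mst1/2 tumours near 15, tumours 4 and 11 near 11, and the 4 lowest tumours at 7.06 to 7.65.

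The Sav1 probe read 8.43 to 9.91 in the 11 tumours and 9.31 ± 0.33 (SD, n = 3) in Sav1 flox livers. Its place relative to the deleted part of the gene is unstated here, so the probe does not check the genotype. Tumours of both classes carried the RNA of hepatocytes: Ttr, a plasma protein gene of these cells, ranged over 15.23 to 15.57 in the Igf2-high and 15.22 to 15.60 in the Igf2-low tumours (Ttr was chosen after its values were seen). These values lie near the top of the normalized scale, so they do not compare the hepatocyte content of the classes. From 48.7% to 54.1% of probes exceeded background in the Igf2-high tumours and 40.6% to 51.5% in the Igf2-low tumours. By the pattern of signal over 11553 probes above background nowhere, the arrays were divided into 3 sets that the labels do not name. The number of sets was fixed in advance. Set A held tumours 1, 2 and 3 and so 2 of the Igf2-low and no Igf2-high tumour, set C held tumours 4 and 5, and set B held tumours 6 to 11, with 3 of the high and 2 of the low class. Sets and classes thus overlapped in part. The mean correlation between arrays of a set over these probes was 0.15 in A, 0.01 in B and 0.02 in C. With arrays of the other sets it was -0.10, -0.08 and -0.04, so sets B and C were weakly defined. Of 254 genes chosen for naming, 14 changed the sign of their difference with the set as a block and 22 within set B. The largest of these was Cdkn2c, a cell cycle inhibitor gene, from 1.66 to -0.47 within set B. These are bulk samples, in which fewer cells of a type and less RNA per cell cannot be told apart.

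Across 14251 genes other than Igf2, 1 gene, Wtip, differed between the classes at an adjusted p under 0.05 (limma, Benjamini-Hochberg), or 0.00702% of those tested, and it was higher in the Igf2-high tumours. No gene was lower at that threshold. At an unadjusted p under 0.05 there were 1281 genes (8.99%), 615 higher (4.32%) and 666 lower (4.67%). In 584 genes (4.1%) the 4 high and 4 low tumours did not overlap, with 297 genes higher (2.08%) and 287 lower (2.01%) in the Igf2-high tumours. Under median scaling these were 351 and 180. Counts of genes without overlap in the lists below stand beside the 4.1% of all genes. The difference was at least 2-fold in 370 genes with a higher (2.6%) and 265 with a lower level (1.86%). With all 33 arrays in the fit, sharing 1 estimate of the spread, 113 of the 14251 genes passed, 58 higher and 55 lower. That estimate includes the normal and surrounding livers. The main fit took its spread from Sav1 tumours alone, on the view that tumours vary more than normal livers. The count of 113 therefore does not rest on the spread between Sav1 tumours. On simulated data of the same classes, with independent noise, 53 of 100 genes changed 2-fold and 92 of 100 changed 4-fold were recovered. There 17 unchanged genes were called too. The adjusted threshold is easier to pass when many genes change, as they did in the simulation. The recovered shares therefore do not apply to these data, where 1 gene passed. All other genes named below are given as values that did not pass, and 34 of the 254 had another kept probe with a difference of the other sign. Other probes are given below for some genes only, and some of those not given had differences near 0, as for Fam20b (-0.08). Differences are log2 levels of the Igf2-high minus the Igf2-low class with their standard errors, and single values follow the order of tumours 7, 9, 4 and 11 for the high, 5, 8 and 2 for the middle and 1, 6, 10 and 3 for the low class.

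Wtip encodes a LIM domain protein of the Ajuba family, whose members bind Hippo pathway kinases. Its level was 10.59, 10.49, 10.07 and 10.29 in the Igf2-high tumours and 8.09, 7.45, 8.81 and 8.07 in the Igf2-low tumours. The classes were apart by more than 1 unit at their nearest members, and the middle tumours, at 10.18, 10.29 and 10.11, were as high as the Igf2-high class. The difference was 2.26 ± 0.25, or 4.78-fold (limma, adjusted p = 0.0474), higher in 4 of 4 tumours. Wtip thus did not follow Igf2 in proportion but separated the 4 tumours with the least Igf2 from the other 7. Normal livers of the genotype Sav1 flox had 7.88 ± 0.12 (SD, n = 3), near the Igf2-low class, and Mst1/2 tumours had 10.70 ± 0.24 (n = 4), above all 11 Sav1 tumours in their mean.

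With the array set as a block its difference was 2.25 and its adjusted p 0.34, and within set B, with 3 against 2 tumours, these were 2.33 and 0.997. It was also lost when any of 9 tumours was left out, with adjusted p-values of 0.152, 0.142, 0.311, 0.135, 0.146, 0.0546, 0.228, 0.262 and 0.127 without tumours 1, 2, 3, 4, 5, 6, 7, 9 and 11, and kept without tumour 8 (0.0474) or tumour 10 (0.0053).

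Among the 15 genes with the smallest p and a higher level in the Igf2-high tumours, the largest difference was that of Ankrd1, a nuclear ankyrin repeat protein gene and YAP/TAZ target. Ankrd1 stood at 11.04, 12.54, 11.84 and 12.19 in the high and 7.90, 9.51, 9.36 and 7.65 in the low class, without overlap. The difference was 3.30 ± 0.64 (adjusted p = 0.376), and a second probe gave 2.83. Middle tumours had 11.87, 11.04 and 9.04, so that 2 of the 3 were as high as the Igf2-high class and tumour 2 lay with the low class. Mst1/2 tumours averaged 11.85 ± 0.54 (SD, n = 4) and Sav1 flox livers 6.43 ± 0.14 (n = 3).

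Sall4 encodes a zinc finger factor of embryonic stem cells and fetal liver that is silent in adult hepatocytes. It was measured at 9.34, 10.41, 9.03 and 8.82 in the Igf2-high tumours and 7.71, 6.23, 6.20 and 7.62 in the Igf2-low tumours. The high class lay above all other Sav1 tumours, as the middle tumours had 7.64, 6.28 and 7.83. The difference was 2.46 ± 0.51 (adjusted p = 0.376), and Sall4 was above background in 2 of the 4 Igf2-low tumours. In the Mst1/2 tumours Sall4 averaged 8.58 ± 1.04 (SD, n = 4), in Mst1/2 surrounding livers 8.32 ± 0.16 (n = 3) and in Sav1 surrounding livers 6.64 ± 0.32 (n = 7).

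Cdkn2b encodes an inhibitor of cyclin D kinases, and its level was 10.41, 8.43, 8.86 and 8.62 against 6.95, 7.12, 7.23 and 6.17. Tumour 7 was 1.5 units or more above the rest of its class, and the classes did not overlap (difference 2.21 ± 0.49, adjusted p = 0.377). Timp1, an inhibitor of matrix metalloproteinases, had 9.63, 10.16, 10.68 and 10.71 against 7.21, 7.52, 9.31 and 7.41, a difference of 2.43 ± 0.54. Here tumour 10 was the highest of the low class, and the 3 middle tumours (9.95, 10.78 and 11.96) lay within or above the Igf2-high class. Gpx3, a secreted glutathione peroxidase, lay at 10.06, 10.21, 9.13 and 11.10 in the high class and in a narrow band of 8.07 to 8.33 in the low class (difference 1.97 ± 0.42).

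Sccpdh, a putative saccharopine dehydrogenase gene, ranged over 9.85 to 10.95 in the Igf2-high and 8.15 to 9.60 in the Igf2-low tumours. The protein methyltransferase gene Setd7 spanned 8.75 to 9.97 in the Igf2-high and 7.24 to 8.58 in the Igf2-low tumours, the mucin gene Muc13 7.77 to 8.90 in the Igf2-high and 6.26 to 7.20 in the Igf2-low tumours, and the phosphatase gene Dusp4, which restrains MAP kinases, 8.07 to 8.75 in the Igf2-high and 6.45 to 7.31 in the Igf2-low tumours. None of these 4 genes overlapped between the classes. Muc13 was the one of the 4 in which all 3 middle tumours (6.79, 6.47 and 7.64) lay below the high class. Another kept probe of Muc13 had a difference of 0.12, and those of Dusp4 ranged from 0.07 to 1.06. The others of the 15 were Arpc1b of the actin-nucleating Arp2/3 complex (1.24 ± 0.28), the matrix protease gene Mmp23 (1.07 ± 0.22), the kinesin gene Kif21b (0.90 ± 0.16), the ribosomal protein gene Rpl12 (0.70 ± 0.12) and the RNA exosome gene Exosc8 (0.68 ± 0.14). Adjusted p-values of the 14 genes after Wtip were 0.38 throughout. Among these, another kept probe of Setd7 and of Kif21b had a difference of the other sign.

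Among the 15 genes with the smallest p and a lower level in the Igf2-high tumours, the largest difference was that of Upp2, a uridine phosphorylase gene of liver. Upp2 stood at 6.99, 7.00, 7.50 and 8.92 in the high and 10.45, 11.08, 12.22 and 13.09 in the low class, a difference of -4.11 ± 0.76 (adjusted p = 0.376). Tumours 7, 9 and 4 were lowest, and the Igf2-low tumours were near the 11.75 ± 0.74 (SD, n = 3) of Sav1 flox livers. All 4 probes of Upp2 had lower values in the high class. Dio1 encodes the deiodinase that activates thyroid hormone in liver. Its level was 7.46, 8.30, 7.98 and 7.84 against 9.49, 11.20, 11.58 and 10.13, without overlap, and the middle tumours lay between the classes at 9.12, 9.37 and 9.03. The difference for Dio1 was -2.71 ± 0.41 (adjusted p = 0.245), and the mean of Sav1 flox livers was above both class means at 11.68 ± 0.94 (n = 3).

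Nudt7, a peroxisomal coenzyme A hydrolase gene, spanned 10.80 to 11.52 in the Igf2-high and 12.27 to 14.53 in the Igf2-low tumours, with a difference of -2.25 ± 0.42. Tumour 3, which had the least Igf2, had the most Nudt7. A group of 3 genes that act in mitochondrial metabolism of branched-chain amino acids and short acids was in the same set. Mccc2, a subunit of methylcrotonyl-CoA carboxylase, ranged over 7.43 to 8.32 in the Igf2-high and 8.84 to 9.71 in the Igf2-low tumours. Pcca, a subunit of propionyl-CoA carboxylase, spanned 9.30 to 9.65 in the Igf2-high and 10.31 to 10.94 in the Igf2-low tumours, and Acsf3, which activates malonate, 7.69 to 8.27 in the Igf2-high and 8.59 to 9.23 in the Igf2-low tumours. All of these were lower in each of the 4 Igf2-high than in each of the 4 Igf2-low tumours. Sntg2, a syntrophin gene, had the smallest unadjusted p of the set (3.26e-05), with 6.99, 6.41, 6.78 and 6.62 against 7.92, 7.65, 8.16 and 7.87 and an adjusted p of 0.232.

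The remaining lower genes had differences of -1.14 (Prps1l3), -1.06 (the ferritin receptor gene Scara5), -1.05 (Sel1l3), -0.96 (Adtrp), -0.92 (the olfactory receptor gene Olfr707), -0.84 (the xylosylkinase gene Fam20b), -0.81 (the pseudokinase gene Stradb) and -0.69 (Gpr180). Their adjusted p-values were 0.38. Scara5 and Stradb each had another kept probe with a difference of the other sign. The 15 lower genes had levels in normal liver on the side of the Igf2-low class: the mean of Sav1 flox livers was nearer the low class in 14 of 15, and nearer it in 15 of 15 of the higher genes. Over all genes with a difference below and above 0, flox livers were on the side of the Igf2-high class in 34.8% and 26.5%, so most genes had this pattern. Mst1/2 tumours, which the ranking did not use, were nearer the Igf2-high class in 11 of the 15 higher and 8 of the 15 lower genes, against 48.6% and 50.4% of all genes with a difference above and below 0.

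**Figure D2:**
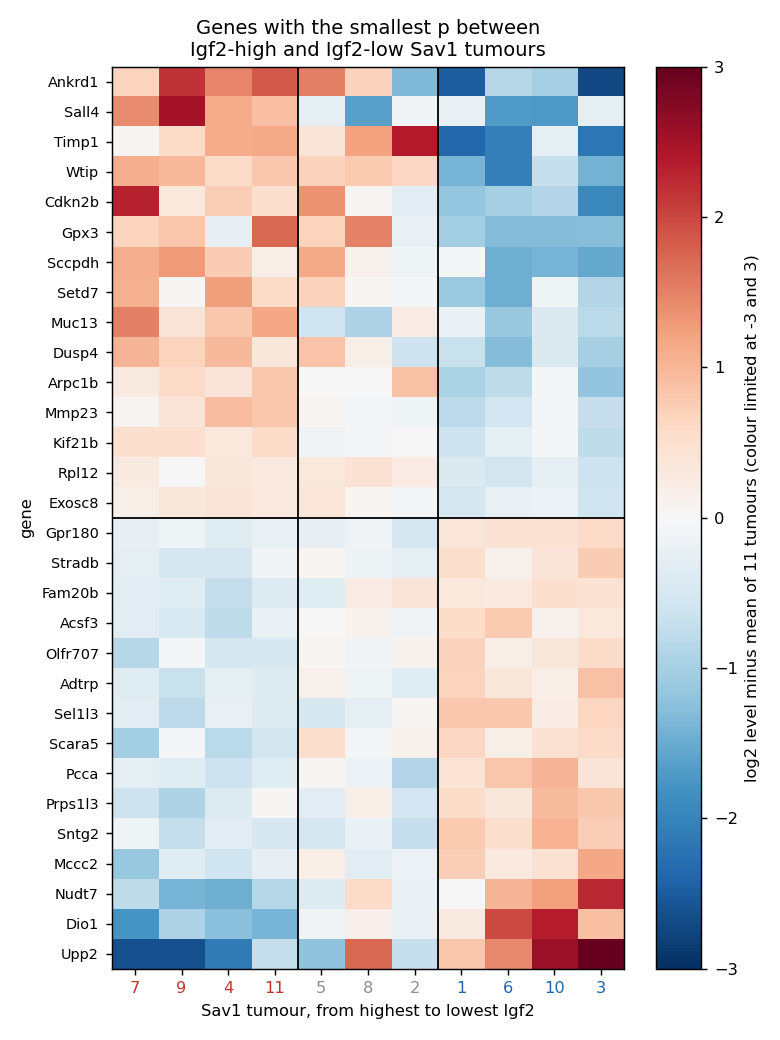
Colours give the log2 level of each gene (rows) in each Sav1 tumour (columns, from the highest to the lowest Igf2), minus the mean of the 11 tumours, for the 15 higher and 15 lower genes with the smallest p. Vertical lines part the 4 Igf2-high, 3 middle and 4 Igf2-low tumours, and the middle tumours resemble the high class for Wtip and the low class for Sall4.

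**Figure D3:**
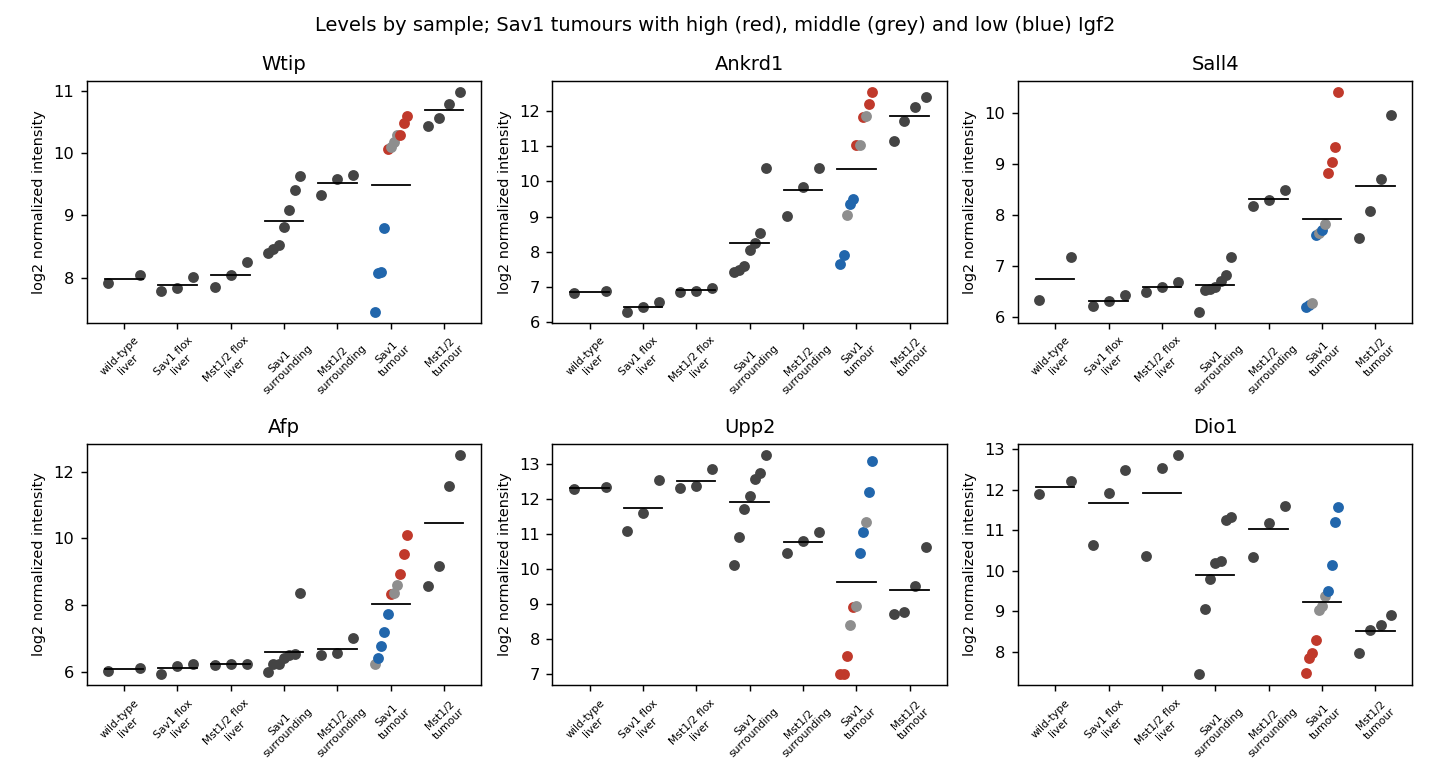
Each point is one sample (vertical axes, log2 normalized intensity) and each line the mean of a genotype and tissue group, for Wtip, Ankrd1, Sall4, Afp, Upp2 and Dio1; Sav1 tumours are coloured by Igf2 class. For all 6 genes the red and blue points do not overlap.

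Of all probes, 48.7% to 54.1% exceeded background in the Igf2-high and 40.6% to 51.5% in the Igf2-low tumours. In some genes the probe exceeded background in all 4 Igf2-high and in no Igf2-low tumour, and no gene showed the reverse. The 5 of these genes with the largest difference were named, which is not a count of all such genes. They were the gliomedin gene Gldn, at 6.47, 8.03, 8.26 and 6.33 in the high class (at least 1.74-fold higher), Kbtbd13 (at least 1.50-fold), the kidney inositol oxygenase gene Miox (at least 1.41-fold), the muscle gene Myot (at least 1.26-fold) and the mitotic gene Fam83d (at least 1.18-fold). For these bounds the low class was set at the dimmest signal above background or its own value. Gldn was high in tumours 9 and 4 and near background in 7 and 11.

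Of the other genes of the insulin-like growth factor axis, 23 were measured, 0 passed, and their median difference was 0.17 beside 0.01 over all genes tested (-0.02 without tumour 10). The receptor gene Igf1r stood at 7.61, 6.70, 8.74 and 7.84 in the Igf2-high and 6.54, 6.90, 6.97 and 6.50 in the Igf2-low tumours (difference 1.00 ± 0.36). Tumour 9 overlapped the low class, and the other probes of Igf1r had differences of 0.03 and 0.01. Insr had 0.10 and Igf2r, which clears the hormone, 0.18. Igf1, the postnatal ligand, was -0.76 ± 0.45.

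Among the binding proteins, Igfbp5 did not overlap between the classes, with 10.31, 9.79, 9.09 and 10.23 against 7.77, 7.16, 8.64 and 6.85, a difference of 2.25 ± 0.53 (adjusted p = 0.409) and 3 probes of the same sign. It was the 1 gene of 23 in this list with that pattern, beside 4.1% of all genes tested. Igfbp3 was 1.69 ± 0.84, with tumour 11 at 12.83, and 0.99 without that tumour. Another kept probe of Igfbp3 had a difference of 0.30. Igfbp1 was 1.56 ± 0.82, highest in tumours 11 and 9. Igfbp6 was above background in 3 of 4 Igf2-high and 0 of 4 Igf2-low tumours (at least 2.13-fold). Igfbp2 varied more within the Igf2-low class, from 8.27 to 13.58, than between the classes. Igf2bp3, an RNA-binding protein gene of fetal tissue that binds Igf2 mRNA, had 8.63, 8.65, 10.46 and 6.48 against 6.78, 6.26, 6.60 and 6.38. Tumours 7, 9 and 4 were high and tumour 11 was at the low-class level, and a further probe of Igf2bp3 had a difference of -0.32. Growth hormone signalling and carrier genes of the axis had differences of -0.33 (Ghr) and -0.73 (Igfals), and the signalling genes Irs1, Irs2, Akt1, Akt2, Grb10 and Grb14 ranged from -0.20 to 0.25. The others measured were Igfbp7 (0.79), Igfbp4 (-0.38), Igf2bp1 (0.18), Pik3r1 (-0.43) and the protease gene Htra1 (-0.07).

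Igf2 lies on chromosome 7 in a cluster of imprinted genes, and 20 genes from that neighbourhood were measured, with a median difference of 0.13. None passed and 1 of the 20 did not overlap, beside 4.1% of all genes tested. It was the cholesterol synthesis gene Dhcr7, at 8.89 to 9.50 in the Igf2-high and 9.83 to 10.08 in the Igf2-low tumours. Cdkn1c, a maternally expressed inhibitor of growth, had 9.95, 10.88, 9.59 and 8.62 against 8.77, 8.78, 8.73 and 8.01, where tumours 7, 9 and 4 were above the low class and tumour 11 within it (difference 1.19 ± 0.47). Phlda2, also maternally expressed, was 0.95 ± 0.53, with tumour 10 above all Igf2-high tumours. Slc22a18 was -0.88 ± 0.37, Nadsyn1 0.68 ± 0.21 (both other probes of the other sign), Osbpl5 0.56 ± 0.19 and Nap1l4 0.36 ± 0.19. Cd81, 0.04 ± 0.17, and Mrpl23, -0.10 ± 0.35, had differences close to 0. The other 11 genes, Tnnt3, Tnni2, Syt8, Ctsd, Ascl2, Tspan32, Tssc4, Kcnq1, Kcnq1ot1, Cars and Tnfrsf22, lay between -0.05 (Tssc4) and 0.49 (the lysosomal protease gene Ctsd). The Igf2 classes were thus more than 5 log2 units apart in Igf2 and at most 1.19 apart in these neighbours. H19, the maternally expressed RNA beside Igf2, was not analysed here. Ins2, Th, Lsp1, Trpm5 and Tnfrsf23 of this list were not among the genes measured either, so the contrast does not cover them.

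Across 24 imprinted genes the median difference was 0.14, with 0 passing. Peg3, a paternally expressed zinc finger gene, had the largest, 2.99 ± 1.16, at 12.44, 11.20, 11.04 and 7.78 against 8.56, 6.49, 9.15 and 6.32. It was high in tumours 7, 9 and 4 and in the middle tumour 5 (10.65), and at the level of the low class in tumour 11. Mst1/2 tumours had 11.81 ± 1.38 (SD, n = 4), though another kept probe of Peg3 had a difference of the other sign. Ppp1r9a, a neuronal actin-binding protein gene, was the 1 imprinted gene of the 24 without overlap, at 10.10, 8.20, 8.94 and 7.10 against 6.62, 6.79, 6.97 and 7.06 (1.73 ± 0.50). Over all genes tested the share without overlap was 4.1%. Paternally expressed Mest (0.26) was highest in tumour 11 and the middle tumour 8, and Dlk1 (-0.06) and Plagl1 (0.08) were above background in no tumour of either class. Cdkn1c, Phlda2 and Slc22a18, given above, belong to this list too. Among the rest, differences were 0.95 for Dcn, a proteoglycan gene of connective tissue cells, 0.76 for Ube3a and 0.58 for Snurf, each with another kept probe of the other sign, and -0.28 for Copg2 and -0.26 for Magel2. Gnas, Grb10, Igf2r, Ndn, Mkrn3, Dio3, Rasgrf1, Commd1, Ascl2, Kcnq1ot1 and Gnasas1 lay between -0.22 (Gnas) and 0.34 (Ndn).

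Oncofetal genes, expressed in fetal liver and again in liver cancer, had a median difference of 0.79 over 25 genes, 18 of them above 0, with 0 passing and 2 without overlap. Afp, alpha-fetoprotein, stood at 9.55, 10.09, 8.93 and 8.35 in the Igf2-high and 6.43, 7.20, 7.73 and 6.78 in the Igf2-low tumours (2.19 ± 0.55, adjusted p = 0.438). Within the high class tumour 9 was highest and tumour 11 lowest. Afp averaged 10.46 ± 1.87 (SD, n = 4) in Mst1/2 tumours and 6.12 ± 0.16 (n = 3) in Sav1 flox livers. Bex2, of a family of small brain-expressed X-linked genes, was 0.88 ± 0.35, while its relatives Bex1 (2.03 ± 0.75) and Bex4 (2.37 ± 0.84) overlapped, with tumour 10 inside the range of the high class. Gpc3, a glypican and clinical marker of HCC, was high in both classes, at 12.94, 12.38, 12.07 and 12.48 and 11.63, 11.40, 12.68 and 11.91 (0.56 ± 0.66). The trypsin inhibitor gene Spink1 was 2.44 ± 1.31, above 14 in all Igf2-high tumours and anywhere from 9.45 to 15.51 in the low class. Tspan8 (1.99 ± 0.84), Psca (1.75 ± 0.98) and Ly6d (1.93 ± 0.95) likewise overlapped. Igf2bp3 and Lcn2, members given elsewhere, were 2.05 and 1.48. Pkm (0.89), Golm1 (0.88), Aldoa (0.79), Gpc1 (0.74) and Cd24a (0.61) followed, and Igf2bp1, Dlk1, Sox4, Scd2, Cpe, Lin28a, Prom1, Tff3 and Cib3 lay between -0.23 (Cib3) and 0.18 (Igf2bp1). Without tumour 11 the median of the list was 0.56 and without tumour 10 0.97.

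Biliary and progenitor cell markers had a median of 0.36 over 19 genes, 15 of them above 0 (0.17 with the array set as a block and 0.19 without tumour 3). Mmp7, a matrix protease of bile duct cells, did not overlap, at 8.62, 7.55, 7.29 and 10.19 against 6.40, 6.19, 7.20 and 5.90 (1.99 ± 0.56). Sox9, a factor of duct and progenitor cells, was 1.80 ± 0.70, with the largest value in tumour 7 (14.42) and the smallest in tumour 3 (9.51). The Notch ligand gene Jag1 was 1.84 ± 0.67 and the chloride channel gene Cftr 1.35 ± 0.49, where tumour 10 was within the high class for both.

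YAP/TAZ target genes had a median of 0.47 over 22 genes, 15 above 0, with 0 passing (0.29 with the array set as a block). Besides Ankrd1, the receptor kinase gene Axl did not overlap (0.74 ± 0.24), though 1 other probe of Axl had the other sign. Ccn2, the connective tissue growth factor gene, was 13.43, 13.33, 12.96 and 13.03 against 13.19, 11.82, 12.54 and 11.83 (0.84 ± 0.30), with tumour 1 inside the high class. Ccn1, chosen after its values were seen, was 0.53 ± 0.74 and overlapped. Of 24 Hippo pathway components the median was 0.07 (-0.03 without tumour 4). The TEAD cofactor gene Vgll4, which represses YAP targets, did not overlap, at 8.11 to 9.21 in the Igf2-high and 9.23 to 9.68 in the Igf2-low tumours (-0.56 ± 0.23). Tead1 was 0.65 ± 0.28, the phosphatase gene Ptpn14 0.46 ± 0.25, and Wwtr1, which encodes TAZ, 0.86 ± 0.29, but another probe of Wwtr1 had a difference of the other sign at an unadjusted p under 0.05. Sav1 itself differed by -0.11 ± 0.32 and Stk4, which encodes Mst1, by 0.57 ± 0.34, while Stk3, which encodes Mst2, was not analysed here.

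The list furthest from 0 was that of pericentral genes, which Wnt signals maintain in hepatocytes around the central vein. All 22 measured had a lower mean in the Igf2-high class, with a median difference of -2.06, but 0 passed and in 0 of 22 were the classes apart. Single tumours went against their class. Relative to the mean of the 11 tumours, the list stood at -1.79, -1.97, -1.52 and 1.50 in the Igf2-high, -1.92, 1.65 and 0.24 in the middle and 0.49, 1.87, -0.93 and 2.38 in the Igf2-low tumours. Tumours 7, 9, 4 and 5 were low, tumour 11 was high, though below the Igf2-low tumours 6 and 3, and tumour 10 was low despite low Igf2. The median was -2.72 without tumour 11, -2.59 without tumour 10, -1.34 without tumour 3, -1.35 with the array set as a block and -1.27 within set B.

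Cyp1a2, a pericentral cytochrome P450, had 7.84, 6.52, 7.77 and 13.10 in the Igf2-high and 12.09, 13.26, 10.75 and 15.07 in the Igf2-low tumours (-3.98 ± 1.68, unadjusted p = 0.0386). The stem cell receptor and Wnt target gene Lgr5 had 6.31, 6.23, 6.23 and 8.15 against 10.35, 8.88, 6.34 and 10.29 and was above background in 1 of 4 high and 3 of 4 low tumours. The 5′-nucleotidase gene Nt5e was 6.84, 7.29, 7.07 and 9.84 against 11.52, 10.16, 8.62 and 11.02. In each of these genes tumour 11 stood apart from the other Igf2-high tumours. Glul, Axin2 and Cyp2e1 were chosen after their values were seen. Axin2, a general Wnt target, had 6.54, 6.44, 6.53 and 9.27 against 9.29, 9.45, 6.64 and 10.53, and Cyp2e1 12.20, 8.81, 12.84 and 15.60 against 15.60, 15.58, 14.07 and 15.59. Glul, the glutamine synthetase gene of the innermost pericentral cells, had 8.88, 7.87, 8.55 and 13.06 against 7.32, 13.66, 8.98 and 12.72, with tumours 11, 6 and 3 near 13 and tumour 1, unlike its class in Axin2, among the lowest. Cyp27a1, a bile acid enzyme gene, had the smallest p of the list and was -1.32 ± 0.52.

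Periportal genes, from the opposite side of the liver lobule, had a median of 0.60 over 16 genes, which became -0.09 with the array set as a block and -0.26 within set B. It was also -0.07 without tumour 3 and 0.16 without tumour 6 and 0.21 without tumour 7 and 0.30 without tumour 9. Etnppl was 0.98 ± 0.60 and Pigr, the transporter gene of antibodies into bile, -1.30 ± 0.91. Hal, the histidine ammonia-lyase gene, was 10.52, 10.66, 10.75 and 7.12 against 7.40, 6.57, 10.38 and 6.20. Tumours 7, 9, 4 and 10 were high and tumour 11 was low, the reverse of the pericentral order. Drug-metabolising enzymes had a median of -0.89 over 27 genes, 5 of them above 0 (-0.52 with the array set as a block and -0.58 without tumour 9). Cyp2c54 (-1.12 ± 0.30) and Cyp4v3 (-0.67 ± 0.22) did not overlap, and Cyp2c50 (-2.36 ± 0.62) and Cyp2c37 (-2.27 ± 0.64) had larger differences but overlapped through tumour 11 in the high and tumour 10 in the low class. The Cyp2c genes are near-identical copies whose probes may share signal.

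Male-biased liver genes had a median of -1.02 over 18 genes, 15 of them below 0 and 3 without overlap, against -0.003 over 15 female-biased genes (0.05 with the array set as a block and 0.12 within set B). Of the female-biased genes, Abcd2 was -1.05 ± 0.44, Cyp2a4 1.80 ± 0.94, Cyp17a1 -0.66 ± 0.40 and the factor gene Cux2 1.00 ± 0.71. Selenbp2, a selenium-binding protein gene, was 11.93, 10.85, 12.75 and 11.54 against 13.27, 13.34, 13.27 and 12.97 (-1.44 ± 0.40), and the complement gene C6 -2.42 ± 0.86. The list's mean relative to the 11 tumours was -0.25, -1.13, -0.07 and -0.09 in the high and -0.33, 0.83, 1.27 and 0.47 in the low class, so tumours 6 and 10 carried most of it and the Igf2-low tumour 1 lay with the high class. Slco1a1, an organic anion transporter gene, was -0.89 ± 0.35. Without tumour 10 the median was -0.54, without tumour 9 -0.63 and within set B -1.81. Y-linked Eif2s3y also varied within the low class, at 7.81, 12.22, 11.57 and 7.51, against 9.77, 8.66, 8.84 and 9.43 in the high class. Its low values there were those of tumours 1 and 3, both of array set A, and tumour 3 was not low in the male-biased list. Its difference was -0.61, and -2.61 within set B, while another kept probe of Eif2s3y had -0.06 over all sets. The Y-linked genes Kdm5d and Uty differed by -0.38 ± 0.52 and -0.16 ± 0.20. Xist, the X-inactivation RNA of female cells, was above background in no tumour of either class, and the part of these differences in the list was not tested.

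**Figure D4:**
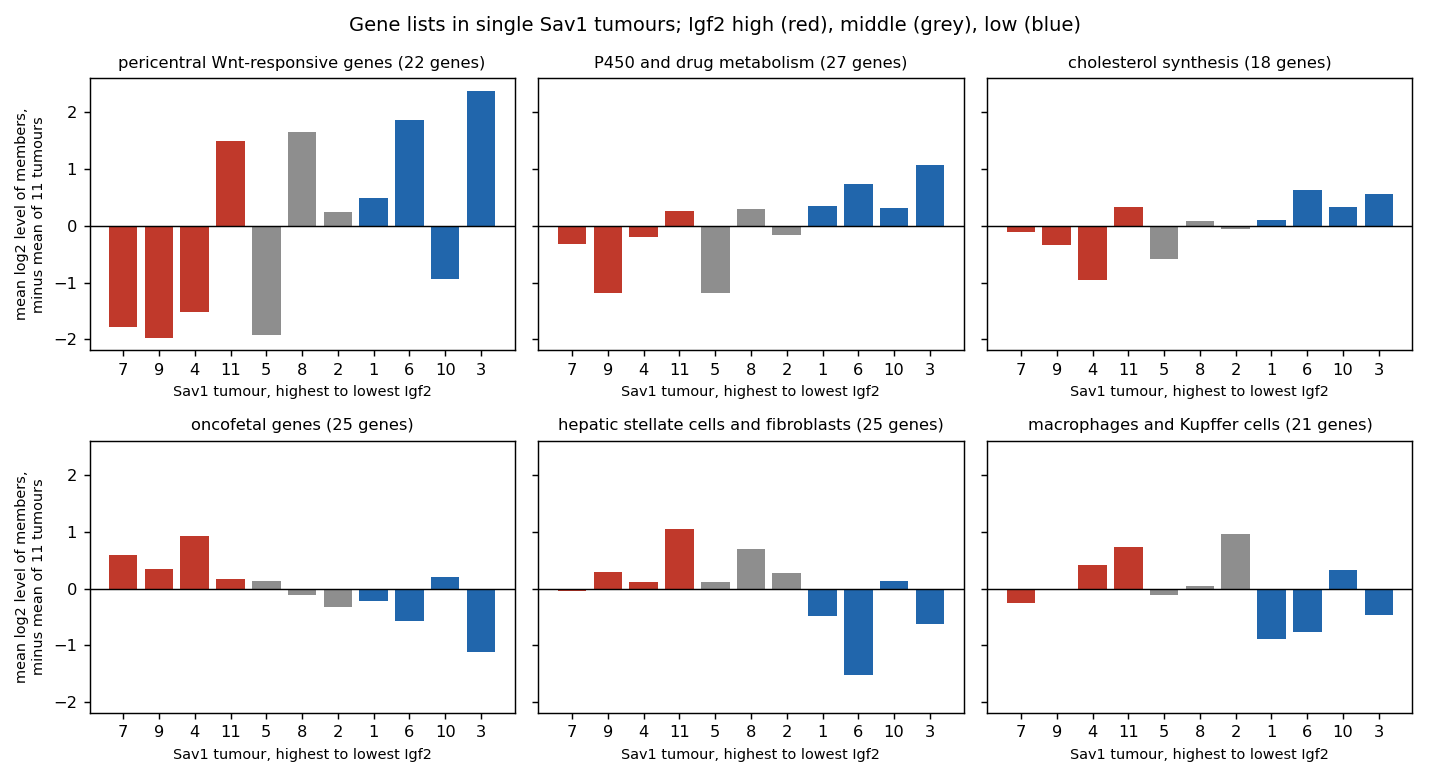
Bars give the mean log2 level of the measured members of 6 gene lists in each Sav1 tumour, minus the mean of the 11 tumours; tumours run from the highest to the lowest Igf2 and are coloured by Igf2 class. Tumour 11 of the high class and tumour 10 of the low class go against their class in the pericentral list (1.50 and -0.93).

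Several lists of hepatocyte metabolism had medians below 0. In cholesterol synthesis it was -0.72 over 18 genes, 16 of them below 0 and 4 without overlap (-0.48 without tumour 4). Relative to the 11 tumours that list stood at -0.10, -0.33, -0.95 and 0.33 in the high and 0.10, 0.63, 0.34 and 0.55 in the low class. Tumour 11 thus lay with the low class. Ebp, a sterol isomerase gene, had 11.74, 11.69, 12.22 and 12.64 against 12.65, 12.69, 13.00 and 13.20 (-0.81 ± 0.23) and Sc5d, a sterol desaturase gene, 7.52, 8.36, 8.08 and 8.64 against 9.12, 8.83, 9.09 and 8.85 (-0.82 ± 0.24). Both were lower in each Igf2-high than in each Igf2-low tumour, as was Dhcr7. Nsdhl was -1.32 ± 0.50 and overlapped. Fatty acid oxidation and ketogenesis genes had a median of -0.60 over 21 genes, 19 below 0, with Acadvl, the very-long-chain acyl-CoA dehydrogenase gene, at 11.46 to 11.69 in the Igf2-high and 11.73 to 12.82 in the Igf2-low tumours without overlap. Eci1 was -0.83 ± 0.25, the carnitine carrier gene Slc25a20 -0.81 ± 0.27 and Acads -0.53 ± 0.20.

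Lipogenesis and triglyceride storage genes had a median of -0.49 over 25 genes (-0.18 with the array set as a block, -0.21 within set B, and -0.24, -0.28, -0.30 and -0.29 without tumours 1, 3, 4 and 9), with 3 of them without overlap: Dgat2, which makes triglycerides (-0.97 ± 0.29), the elongase gene Elovl6 (-1.36 ± 0.61, with another probe of the other sign) and Fasn, the fatty acid synthase gene (-0.31 ± 0.13). Thrsp was -1.53 ± 0.59, with another kept probe at -0.12. Urea cycle and amino acid catabolism genes had a median of -0.43 over 23 genes (-0.20 without tumour 7 and -0.28 without tumour 10). Gnmt, a glycine methyltransferase gene, was 11.82, 13.45, 13.27 and 13.34 against 13.90, 13.87, 14.28 and 14.60 (-1.19 ± 0.35), and Fah, of tyrosine breakdown, 14.44, 14.00, 13.86 and 14.05 against 14.48, 14.89, 14.48 and 14.68 (-0.55 ± 0.16). Neither overlapped, and tumour 7 was lowest for Gnmt. Cbs was -0.90 ± 0.31 and Hpd -1.97 ± 0.83. Oxidative phosphorylation genes had a median of -0.26 over 23 genes (-0.43 without tumour 4), with Ndufa4 at -0.71 ± 0.23, Uqcrc1 -0.67 ± 0.23, Cyc1 -0.75 ± 0.33 and Atp5b -0.40 ± 0.18. Glycolysis genes had 0.06 over 20, with Gapdh at 0.70 ± 0.30, Slc2a1 at 0.67 ± 0.41 without overlap, Aldoa at 0.79 ± 0.49 and Pfkm at -0.63 ± 0.34.

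Of 16 hepatocyte transcription factors, whose median was -0.12, Foxa1, a pioneer factor of liver development, did not overlap, with 9.35, 7.82, 8.49 and 8.99 against 9.92, 10.31, 10.32 and 9.99 (-1.47 ± 0.34, adjusted p = 0.394). Cebpa, a factor of mature hepatocytes, was 6.83, 7.11, 7.69 and 7.25 against 8.29, 7.56, 8.18 and 8.62 (-0.94 ± 0.24), and tumour 4 overlapped tumour 6. Rxra was -0.82 ± 0.26 and Nr1h3 -0.88 ± 0.33, whereas Hnf4a was 0.84 ± 0.35. The list thus held members with differences in both directions, and its median changed sign to 0.12 with the array set as a block. Plasma protein genes had a median of -0.04 over 28 genes (0.02 within set B), among them Serpinc1, the antithrombin gene, at 9.24, 8.61, 8.89 and 8.71 against 9.83, 12.16, 11.88 and 9.98 and Apoc3 at -0.47 ± 0.23, while the complement factor gene Cfb was 0.82 ± 0.40. The difference of Serpinc1 was -2.10, but -0.13 for another kept probe.

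Cell cycle genes had a median of 0.13 over 31, 22 above 0 (-0.03 without tumour 6 and -0.03 without tumour 4). Ccna2, the cyclin A gene of S and G2 phase, was 6.75, 6.73, 7.11 and 6.69 against 6.15, 6.28, 6.40 and 6.15 (0.58 ± 0.15), and Ube2c, of the anaphase-promoting pathway, 6.66, 6.71, 7.59 and 7.07 against 6.23, 6.48, 6.60 and 6.07 (0.67 ± 0.26). Both were without overlap and near the lower end of the scale, being above background in 1 and 2 of the 4 Igf2-low tumours. Aurka was 0.88 ± 0.48 and Pcna 1.17 ± 0.67. Cell cycle inhibitors and senescence genes had 0.27 over 13, of which Cdkn2b and Cdkn1c are given above and Rb1 was 0.45 ± 0.28; Cdkn2c (1.66 ± 0.93) was at 5.65 and 5.65 in tumours 1 and 3, both of array set A, and between 8.84 and 9.87 in the other 6 of both classes, and both further probes of Cdkn2c had differences of the other sign. Genes induced by p53 had 0.18 over 19, with Gadd45g at 1.08 ± 0.45, Phlda3 at 0.65 ± 0.40, Btg2 at 0.33 ± 0.21 and Pmaip1 at -0.20 ± 0.13.

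Ribosomal protein genes differed little in size but with small spread. Their median was 0.18 over 15 genes, 11 above 0 and 3 without overlap. Relative to the 11 tumours the list stood at -0.17, 0.14, 0.20 and 0.10 in the high and -0.14, -0.26, -0.13 and -0.07 in the low class. Tumour 7 thus lay with the low class. Rpl32 had 14.84, 14.99, 15.05 and 14.69 against 14.03, 14.51, 14.39 and 14.14 (0.63 ± 0.15), Rpl28 0.45 ± 0.10 (0.05 for another kept probe) and Rpl19 0.49 ± 0.14, and Rpl3 was 0.31 ± 0.13. For the 3 genes without overlap the middle tumours were at 14.48 to 14.80, 14.77 to 14.89 and 12.18 to 12.58, so that tumour 2 lay with the low class for Rpl32 and the other values within 0.2 of the high class. Genes of the NRF2 and glutathione response had 0.44 over 24, 18 above 0 (0.27 within set B, 0.75 without tumour 9 and 0.67 without tumour 10). The quinone reductase gene Nqo1 was 8.83, 8.02, 8.13 and 7.99 against 6.27, 7.64, 7.30 and 6.47 (1.32 ± 0.45), and Gclc, of glutathione synthesis, 0.80 ± 0.27, neither with overlap. Akr1b8 was 0.83 ± 0.29 and Gstm5 0.97 ± 0.41. Unfolded protein response genes had 0.05 over 23 (-0.14 without tumour 6 and -0.13 without tumour 9 and -0.10 with the array set as a block), with Trib3 at 0.60 ± 0.36 (another probe of the other sign), Asns at 1.70 ± 1.09, Sdf2l1 at -0.70 ± 0.48 and Edem1 at -0.39 ± 0.25. Epithelial junction and cytoskeleton genes had 0.23 over 32 (0.05 with the array set as a block and 0.09 without tumour 3 and 0.14 without tumour 11). Krt23, a keratin gene, had the largest difference of that list, at 8.44, 7.66, 9.64 and 9.98 against 12.27, 11.90, 11.15 and 12.08 (-2.92 ± 0.85), lower in each Igf2-high tumour. The tight junction gene Ocln was -0.72 ± 0.31, the calcium-binding protein gene S100a6 1.22 ± 0.52 and the tubulin gene Tubb2a 0.25 ± 0.11.

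Acute phase genes had a median of 0.43 over 23 genes, 20 above 0. Ceruloplasmin (Cp) was 15.10, 15.08, 14.63 and 14.41 against 14.36, 14.21, 14.10 and 13.85 (0.67 ± 0.19) and the fibrinogen gene Fgg 0.55 ± 0.16, both without overlap. Lcn2 was 1.48 ± 0.53 and Serpina3n 0.97 ± 0.37. Inflammatory cytokine and NF-kB genes had 0.48 over 24, 19 above 0 (0.22 within set B, 0.30 without tumour 3 and 0.31 without tumour 11), with the chemokine genes Cxcl1 (1.52 ± 0.55), Ccl4 (1.36 ± 0.49) and Cxcl2 (1.25 ± 0.53, without overlap). In Cxcl2 the middle tumour 2, at 9.76, exceeded all 8. Birc3, an NF-kB target, was 0.88 ± 0.37. Interferon response genes had -0.06 over 25, 10 above 0 (0.11 without tumour 10), with Usp18 at -1.20 ± 0.62, Rsad2 at -1.25 ± 0.73, Irf9 at -0.66 ± 0.39 and Oas1a at -0.37 ± 0.23.

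Markers of other cell types were compared over whole lists. Stellate cell and fibroblast markers had a median difference of 0.93 over 25 genes, 22 of them above 0, and their summed linear intensity was 26715 to 60965 in the Igf2-high, 30560 to 50939 in the middle and 8578 to 33053 in the Igf2-low tumours. The collagen gene Col3a1 was 11.61, 11.44, 10.37 and 12.32 against 7.92, 8.11, 10.96 and 8.23 (2.63 ± 0.72), Timp2 1.27 ± 0.36 and the fibulin gene Fbln2 1.11 ± 0.33. Another kept probe of Col3a1 had a difference of 0.06. Relative to the 11 tumours the list stood at -0.05, 0.29, 0.12 and 1.04 in the high and -0.49, -1.52, 0.14 and -0.62 in the low class, so that tumour 10 lay with the high class, as it did for Col3a1. The median was 1.07 with the array set as a block. Timp1, named above, is a member of this list, and the part of stellate cells in its difference was not tested.

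Macrophage and Kupffer cell markers had a median of 0.69 over 21 genes, 15 above 0 (0.38 without tumour 6 and 0.40 within set B), and a summed intensity of 37979 to 96059 in the Igf2-high, 59020 to 110303 in the middle and 22177 to 64222 in the Igf2-low tumours. Without overlap, 1 gene of the list was higher and 1 lower, the latter not among those named here. Relative to the 11 tumours the list stood at -0.25, 0.0003, 0.42 and 0.74 in the high and -0.88, -0.77, 0.33 and -0.46 in the low class. Tumour 7, with the most Igf2, thus lay below tumour 10 of the low class. Lyz2, the lysozyme gene of macrophages, was 13.17, 14.06, 14.11 and 13.97 against 10.63, 11.53, 13.61 and 10.58 (2.24 ± 0.59), the protease gene Ctss 11.07, 12.79, 12.54 and 12.85 against 8.72, 9.77, 12.02 and 9.09 (2.41 ± 0.67), and Gpnmb, of lipid-laden macrophages, 10.56, 10.14, 11.58 and 9.76 against 6.95, 7.11, 7.97 and 8.14 (2.97 ± 0.90), with another kept probe of the other sign. Tumour 10 was again high for Lyz2 and Ctss, and without it Lyz2 passed, at 2.92 (adjusted p = 0.0461). Trem2 was 1.32 ± 0.52. These 4 had the smallest p of the list and were all higher, whereas 6 of its 21 genes were below 0. At an unadjusted p under 0.05 (limma), 4 genes of the list were higher and 1 lower. Genes particular to Kupffer cells are not given. Neutrophil markers had 0.58 over 12, 11 above 0 (0.38 without tumour 7 and 0.92 with the array set as a block), with Camp at 0.62 ± 0.26, S100a9 at 1.75 ± 0.51, S100a8 at 1.65 ± 0.68 and a summed intensity of 18767 to 52842 in the Igf2-high, 21399 to 66072 in the middle and 7162 to 18862 in the Igf2-low tumours. T and NK cell markers had 0.22 over 14 (Il7r 0.87, Cd3d 1.00, Cd3e 0.87, Thy1 0.87) and a summed intensity of 3787 to 5568 in the high and 3400 to 4764 in the low class. B and plasma cell markers had 0.05 over 9 (Mzb1 0.50, Jchain 0.51, Cd22 0.31, Blnk -0.65) and 1196 to 1675 against 1274 to 1881, with the B cell surface gene Ms4a1 at background in all tumours.

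Endothelial markers had a median of -0.16 over 25 genes, 8 above 0, and 0.09 within set B. Vwf, of larger vessels, was 7.45, 7.89, 7.11 and 8.14 against 6.88, 6.75, 6.76 and 6.81 (0.85 ± 0.28), while the sinusoidal genes Stab2 (-1.15 ± 0.41), Dnase1l3 (-1.05 ± 0.39) and Gpr182 (-0.99 ± 0.41) had lower means in the Igf2-high class. These 4 had the smallest p of the list, whose other sinusoidal genes are not given, and 0 of the 25 were lower without overlap. Relative to the 11 tumours the list stood at -0.48, -0.42, -0.23 and 0.58 in the high and 0.06, -0.29, 0.13 and 0.56 in the low class. Tumour 11 was thus the highest of the 8. The summed intensity of the list was 12472 to 30737 in the Igf2-high, 14276 to 31467 in the middle and 15776 to 31708 in the Igf2-low tumours. Erythrocyte genes had -0.92 over 7, all below 0 (-0.51 without tumour 6), with Alas2, the heme synthesis gene of red cells, at 9.03, 7.75, 8.75 and 8.54 against 9.91, 11.31, 10.97 and 9.18, with Hba-a1 at -1.06 ± 0.51, Hbb-bt at -1.06 ± 0.50 and Car1 at -0.60 ± 0.17, and a summed intensity of 17383 to 42934 in the high and 31013 to 84941 in the low class. Further kept probes of Hbb-bt had differences from -0.74 to 0.41. Hepatocyte markers had -0.05 over 11 genes (0.09 without tumour 7, 0.04 with the array set as a block and 0.05 within set B), with Alb, the albumin gene, at 0.79 ± 0.56, Serpina1a at 0.54 ± 0.35 and Trf at -0.19 ± 0.12, and a summed intensity of 279920 to 355217 in the Igf2-high, 261579 to 286894 in the middle and 298973 to 339840 in the Igf2-low tumours. Adipocyte markers had -0.07 over 5 genes (Lep -0.10, Retn -0.08, Lipe 0.11), with Adipoq above background in no tumour, and pancreatic acinar markers -0.21 over 7 (Cela2a -0.81, Amy2a5 -0.63), with Cela3b above background in neither class. The part of cell composition in the other lists was not tested.

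**Figure D5:**
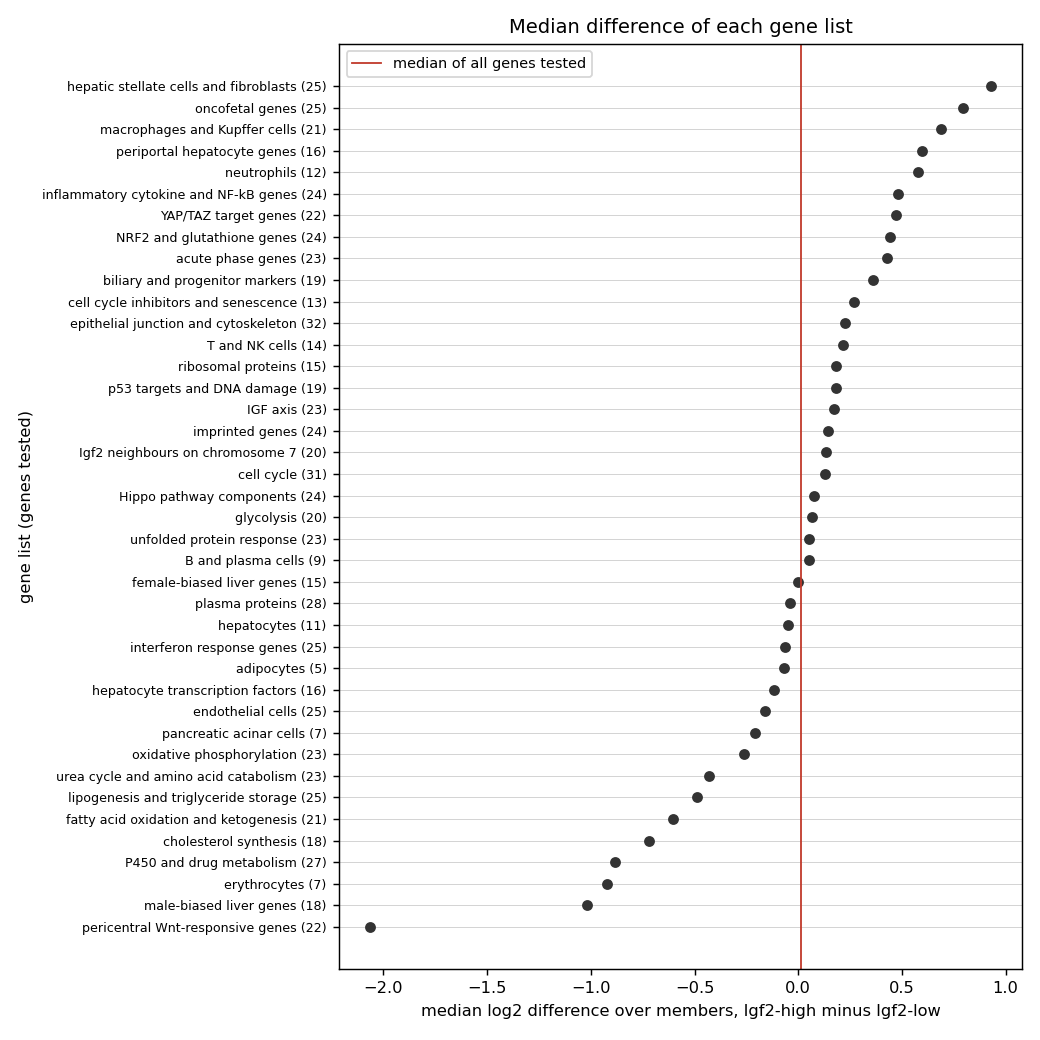
Each point is the median over the measured members of a gene list (rows, number of genes tested in parentheses) of the log2 difference between Igf2-high and Igf2-low Sav1 tumours; the vertical line is the median of all 14251 genes, 0.01. Pericentral genes lie lowest at -2.06 and stellate cell and fibroblast markers highest at 0.93.

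The relation to Igf2 was also read in the 4 Mst1/2 tumours, which the ranking did not use. A straight line on Igf2 across these 4 gave 0 genes (0%) at an adjusted p under 0.05 and 1132 (7.94%) at an unadjusted p under 0.05 (limma). Igf2 varied there by less than 1 log2 unit, from 15.04 to 15.62, so the range over which a relation could show was small. The slope of Wtip was -0.69 ± 0.43 per log2 unit of Igf2, that of Ankrd1 -1.73 ± 0.63, that of Afp -5.81 ± 2.05 and that of Upp2 2.95 ± 0.89. As levels, Mst1/2 tumours were nearer the Igf2-high class in 57.9% of the 297 genes higher without overlap and 53.7% of the 287 lower ones. The middle Sav1 tumours were nearer it in 67% and 68.6%, and Sav1 flox livers in 12.8% and 11.1%. Over all genes with a difference above or below 0 these shares were 48.6% and 50.4% for Mst1/2 tumours, 50.9% and 55.3% for the middle tumours and 26.5% and 34.8% for the flox livers. The genes were chosen on the high and low classes, so these shares are a description.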

How the data were processed

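RNA of 33 mouse liver and tumour samples was measured on 1-colour Illumina bead arrays. The deposited signal table held 1 intensity per probe and array, without detection p-values, and the deposited series matrix held log2 values that equalled the log2 of these intensities after quantile normalization to within 0.005. BeadStudio is named in the submitters' processing notes, with its version not given in the sources used here. Samples were grouped by the labels, and Sav1 tumours were ranked on the authors' log2 value of Igf2. The members, gene lists and tests were chosen with earlier results of these data known.

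The deposited intensities were corrected with normexp (offset 50) and quantile normalized in limma 3.58.1 under R 4.3.3. Background was set on each array as the 0.99 quantile of its dim signals mirrored about their mode, since no negative control probes were used. Of 45281 probes, 34885 had 1 gene symbol, 18 several and 10378 none; 23763 probes above background on at least 3 arrays were kept, and for each of 14251 genes the kept probe that was brightest on average stood for the gene. Signal on the arrays limits the precision, with 35.0% to 54.8% of probes above background.

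The 3 classes of 11 Sav1 tumours were fitted together with lmFit and eBayes, and p-values were adjusted by the Benjamini-Hochberg method over all genes other than Igf2. A second fit placed a line on Igf2 in the 4 Mst1/2 tumours. The pipeline was tested on simulated data. Genes named are the 15 with the largest difference past the threshold in each direction, filled by the smallest p, up to 5 detected in all tumours of one class and none of the other, all of the IGF, neighbour, imprinted and oncofetal lists, and for each other list the 4 with the smallest p. Alternatives were the authors' log2 values, median scaling, an offset of 16, no filter on dim probes, other sets of arrays, a line on Igf2, the array set as a block, trended and weighted fits, and each tumour left out in turn. Promoters were read from a RefSeq table with Python 3.11.15, and figures were drawn with matplotlib 3.10.9.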

Additional observations from a re-analysis of the deposited data

Results flagged for a closer look

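Within a class of 4 tumours, or the 7 surrounding livers for Igf2, the highest or lowest sample was set against the others by its gap relative to the range. Of 542 such sets 35 (6.46%) had a sample that stood apart, where chance flags about 1 in 20. In Igf2 this was Sav1 surrounding liver 5, at 13.91, above 6 others of at most 9.36.

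Tumour 11 stood apart from the other Igf2-high tumours in the pericentral list, with a mean level of 1.50, and in Axin2 (9.27), Lgr5 (8.15) and Nt5e (9.84), all higher, and in Hal (7.12), lower. It also stood apart in Nadsyn1 (7.61), Pfkm (8.27) and S100a8 (9.96). Tumour 7 stood apart in that class in Gnmt (11.82), Lyz2 (13.17), Nqo1 (8.83) and the imprinted list (0.38), tumour 9 in Car1 (6.37), and tumour 4 in Ccna2 (7.11), Cd22 (6.46), Stk4 (9.57) and Trem2 (10.29).

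Tumour 10 stood apart from the other Igf2-low tumours in Bex1 (9.13), Cd3d (7.90), Cftr (7.92), Col3a1 (10.96), Etnppl (8.17), Timp1 (9.31), the NRF2 and glutathione list (0.18) and the urea cycle and amino acid list (0.63), all higher, and in Cyp2e1 (14.07), lower. It also did so in Igf2bp1 (6.05). In that class tumour 1 stood apart in Fasn (6.95), Gpx3 (8.33), Sccpdh (9.60) and the Hippo list (0.21), tumour 3 in Cdkn1c (8.01), and tumour 6 in Gnas (9.13) and Ttr (15.22).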

How the results depend on the processing

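The count of 1 gene past the threshold, 1 higher and 0 lower, was the same with the authors' log2 values, an offset of 16, trended and robust fitting and array weights. It was 0, with 0 higher, under median scaling, without the filter on dim probes, with the array set as a block and within set B. With the 8 arrays of both classes alone it was 2, with 1 higher (Bmper) and 1 lower (Sult2a8). With all 33 arrays, and so a spread shared with normal and surrounding livers, it was 113, with 58 higher and 55 lower. A straight line on Igf2 gave 0 higher and 1 lower gene (Pxmp2). Leaving out each tumour in turn gave 0 to 3 genes, 0 to 2 higher and 0 to 1 lower: 3 without tumour 8 (Wtip, Bmper and Sult2a8), 2 without tumour 10 (Wtip and Lyz2) and 0 without each other tumour. Genes at an unadjusted p under 0.05 numbered 577 within set B and 2392 with all 33 arrays, and genes without overlap, higher and lower, 351 and 180 under median scaling, 1231 and 1403 within set B, and 952 and 760 without tumour 10. Having fewer arrays makes non-overlap easier by construction; for the other changes the cause was not tested. The slope in Mst1/2 tumours gave 0 genes under all of its alternatives, with 589 to 1934 at an unadjusted p under 0.05 when each tumour was left out. The split of genes without overlap had more higher than lower genes in the fit over all sets (297 and 287) and fewer within set B. The median over all genes was 0.01, and 0.06 under median scaling. Of the 254 named genes, 0 to 15 changed sign when 1 tumour was left out (15 without tumour 7), 9 under median scaling, 16 with a straight line on Igf2, 14 with the array set as a block and 22 within set B, Ctsd (-0.22) among the last. The list medians that changed sign under at least 1 alternative were those of the cell cycle, Hippo, IGF axis, glycolysis, unfolded protein response, interferon, periportal, plasma protein, hepatocyte transcription factor, female-biased and sex chromosome lists and of hepatocyte, endothelial, adipocyte and pancreatic markers. Ranking on another Igf2 probe was not run because the table used here holds 1. No paired analysis was possible because the high and low classes come from 1 label group and share no replicate numbers.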
